A study of Mus musculus with 30 samples.

Results

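Shtn1, Nav1, Nav3, Tenm3, Plppr1, Plppr4 and Dner, 7 genes of neurite formation whose signal in mouse primary visual cortex (V1) is lower in the adult, were followed over postnatal development. All 22 probe sets whose array annotation gave a single one of these symbols were taken, of 36899 probe sets on the 3 chip types, and 17 of them were bright enough to be tested among 20724 tested probe sets. Shtn1 had 1 probe set, Nav1 5, Nav3 4, Tenm3 3, Plppr1 1, Plppr4 3 and Dner 5. The genes had been selected on the difference between postnatal day 60 (P60) and P14, so their P60 and P14 values are given below as a description, and no test is drawn from that contrast.

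V1 had been microdissected from litters of mice under standard rearing, at P14 (3 litters), P28 (3 litters) and P60 (4 litters). Total RNA was labelled with biotin and hybridised to Affymetrix MG-U74 chips A, B and C, so that each litter gave 3 arrays and the study 30. All animals shared the same rearing, and no genotype, strain, sex or treatment is named in the labels. The number of animals behind a litter's sample was not given in the sources used here. P-values measure the spread between litters. Values are MAS5 signals, the linear brightness that Affymetrix software computes from a probe set's matching and mismatching probes. A signal depends on the probe set as well as on the RNA, so levels are compared between ages of the same probe set, never between probe sets.

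Neurons extend neurites by assembling microtubules inside the process and actin filaments at its tip, the growth cone, while receptors on the surface grip the surroundings. Shtn1 encodes shootin1, which couples flowing actin in the growth cone to the adhesion molecule L1. Nav1 and Nav3 encode neuron navigators, large proteins at growing microtubule ends and relatives of UNC-53 of Caenorhabditis elegans, a protein of axon guidance. Tenm3 encodes teneurin-3, a transmembrane adhesion protein that binds latrophilins and that mouse visual pathways need for correct wiring. Plppr1 and Plppr4 belong to the plasticity-related membrane proteins, which resemble lipid phosphatases, and Plppr4 acts at glutamatergic synapses. Dner encodes a neuronal transmembrane protein with epidermal growth factor repeats that can act as a Notch ligand.

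The genes lie apart in the genome (GRCm38.p6): Shtn1 at chr19:58973358-59076124, Nav1 at chr1:135434580-135688350, Nav3 at chr10:109681260-110455722, Tenm3 at chr8:48225665-49522824, Plppr1 at chr4:49059462-49340261, Plppr4 at chr3:117319145-117360876 and Dner at chr1:84369839-84696221. RefSeq promoter sequence, 250 bases before to 50 bases after a transcription start, was matched for 5 of the 7 genes (Nav1, Tenm3, Plppr1, Plppr4 and Dner), and 3 are printed because they hold the motif matches described here. Nav1 (chr1:135585306-135585605, minus strand) had 63.3% G and C, Tenm3 (chr8:48674641-48674940, minus strand) 47.3% and Plppr1 (chr4:49059212-49059511, plus strand) 65.7%, around a median of 52.7% over 32851 promoters. The listed starts of Nav1 and Tenm3 lie inside those genes, downstream of their outermost start. Capitals mark GC boxes (GGGCGG, here on the opposite strand as CCGCCC) in Nav1 and Plppr1, a cyclic AMP response element (TGACGTCA) in Tenm3, and an NRF1 core (GCATGCG) near the far end of Plppr1.
Nav1: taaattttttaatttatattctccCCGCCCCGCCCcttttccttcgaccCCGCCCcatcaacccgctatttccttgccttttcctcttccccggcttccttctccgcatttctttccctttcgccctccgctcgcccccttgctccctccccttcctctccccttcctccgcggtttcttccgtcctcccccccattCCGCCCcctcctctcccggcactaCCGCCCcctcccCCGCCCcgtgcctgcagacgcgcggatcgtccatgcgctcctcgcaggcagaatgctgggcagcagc
Tenm3: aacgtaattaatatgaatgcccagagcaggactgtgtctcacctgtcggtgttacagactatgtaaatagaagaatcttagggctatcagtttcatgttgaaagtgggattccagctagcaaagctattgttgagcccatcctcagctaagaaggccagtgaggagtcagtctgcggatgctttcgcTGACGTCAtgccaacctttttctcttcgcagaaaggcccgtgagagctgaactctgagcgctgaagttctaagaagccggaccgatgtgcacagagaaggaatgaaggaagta
Plppr1: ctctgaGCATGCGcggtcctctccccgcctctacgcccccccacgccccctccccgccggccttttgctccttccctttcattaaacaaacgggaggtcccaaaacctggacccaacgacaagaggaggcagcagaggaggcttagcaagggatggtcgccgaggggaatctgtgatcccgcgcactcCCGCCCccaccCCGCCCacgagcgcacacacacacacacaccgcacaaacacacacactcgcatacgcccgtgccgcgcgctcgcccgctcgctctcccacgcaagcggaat

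The letters GGGCGG were found in 2 of the 5 promoters and in 35.66% of all promoters, searched on both strands with overlaps allowed. The full response element TGACGTCA was found in 1 of 5, 63 bases before the start of Tenm3, and in 1.79% of all promoters. GCATGCG was found in 1 of 5 and in 3.58% of all, TATAAA in 1 of 5 (Nav1) and in 13.62%. TGACG, which is contained in TGACGTCA, was found in 1 of 5 and in 20.81% of all promoters. CCAAT was in 37.41% of all promoters, CAGCTG in 16.3% and CACGTG in 7.15%, and these were in none of the 5 windows. Each match is a match of letters in a window and no measured binding site.

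Array quality differed between litters. P14 litter 1 had 3′ to 5′ signal ratios of 9.57 to 12.2 for Gapdh and of 12.2 to 12.8 for Actb on its 3 arrays, against 0.741 to 1.32 and 1.04 to 1.5 on the other 27 arrays. Its mean correlation with the other arrays of its chip type was 0.783 to 0.831. A further 5 P60 arrays, from litters 1 and 4 on chips A and B and litter 2 on chip C, reached 0.789 to 0.882 on the same measure, and the remaining 22 arrays reached 0.855 to 0.922. Counts of calls and some log2 differences are therefore given with and without them. Correlations between probe sets, mean profiles and summed marker signals are given with all litters only. Over the 17 tested probe sets of the 7 genes, P14 litter 1 was above both other P14 litters in 7, below both in 6 and between them in 4.

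**Figure D1:**
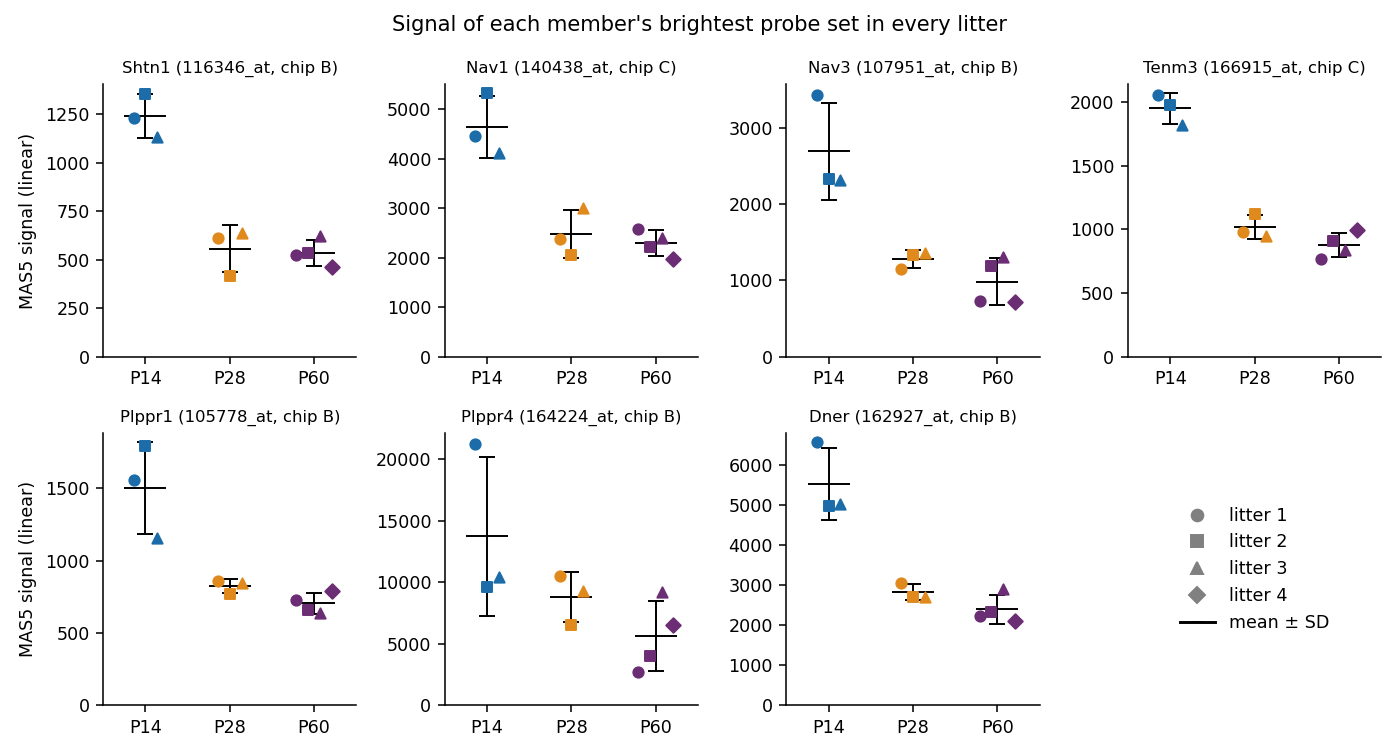
MAS5 signal (linear axis from 0) of the brightest tested probe set of each gene at P14, P28 and P60. Each point is a litter (marker shape by litter number, with no link across ages stated in the labels), and bars give the mean ± SD of 3, 3 and 4 litters. In every gene but Plppr4 the 3 P28 litters sit below the 3 P14 litters, and P28 and P60 litters overlap in all 7 genes.

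Shtn1, the gene of the growth cone clutch protein shootin1, was measured by 116346_at on chip B alone. Its signal was 1230.2, 1356 and 1132 in the P14 litters, 613, 418 and 639 in the P28 litters, and 524.5, 532, 622 and 460.2 in the P60 litters. The P14 litters were all high, and the litters of the other ages lay together well beneath them. The log2 difference was −1.09 (SE 0.21) for P28 minus P14 and −0.04 (SE 0.19) for P60 minus P28. By limma with Benjamini-Hochberg adjustment over all tested probe sets these had adjusted p = 0.147 and adjusted p = 0.99, so neither passed 0.05. In bulk tissue, fewer cells of a type and less RNA per cell cannot be told apart, here and in every result that follows.

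The neuron navigators gave the most probe sets and the most disagreement. Nav1 140438_at on chip C, its brightest, had signals of 4447, 5327 and 4114 at P14, 2373, 2046 and 3005 at P28, and 2579, 2218, 2398 and 1964 at P60. Nav1 115820_at on chip B had 1601, 1866 and 1611 at P14, 821, 1074 and 832 at P28, and 767, 852, 853 and 651 at P60. In both probe sets every P28 and every P60 litter was below every P14 litter, and P60 overlapped P28. The log2 differences for P28 minus P14 were −0.90 (SE 0.22) and −0.86 (SE 0.19), with adjusted p = 0.279 and adjusted p = 0.235 by limma. For P60 minus P28 they were −0.10 (SE 0.20) and −0.20 (SE 0.18), with adjusted p = 0.966 and adjusted p = 0.91.

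The other 3 Nav1 probe sets were dimmer and less uniform. Nav1 103491_at on chip A spread over 20.4 to 427 in the P60 litters alone, with litters 1 and 4 at 28.2 and 20.4 and litters 2 and 3 at 427 and 414, and those low arrays are among the P60 arrays that stood apart. Its P14 litters lay at 308 to 614 and its P28 litters at 133 to 376, with log2 differences of −0.62 (SE 0.77) for P28 minus P14 and −1.46 (SE 0.72) for P60 minus P14. Nav1 109640_at on chip B ran the other way in its log2 difference of P28 minus P14, 0.49 (SE 0.47), where P14 litter 1 was at 61.2 and the other P14 litters at 315 and 414. Without P14 litter 1 that difference was −0.12. Nav1 110186_at on chip B was too dim to be tested. It averaged 269 at P14, 118 at P28 and 99.8 at P60, every P60 litter lay below every P14 litter, and its P28 and P60 means were beneath the level of the bacterial control probe sets. Over the 10 litters, Pearson's r with 140438_at was 0.89 for 115820_at, 0.49 for 103491_at and −0.35 for 109640_at.

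For Nav3, 107951_at on chip B had 3432, 2332 and 2315 at P14, 1149, 1333 and 1365 at P28, and 729, 1189, 1302 and 713 at P60. Every P28 and P60 litter was below every P14 litter, and P14 litter 1 was the highest, at 1.48 times the mean of the other P14 litters. The log2 difference of P28 minus P14 was −1.02 (SE 0.26, adjusted p = 0.352 by limma), and that of P60 minus P28 was −0.41 (SE 0.25, adjusted p = 0.897). The second Nav3 probe set, 130290_at on chip C, had 1145, 2229 and 2347 at P14, 1005, 908 and 1189 at P28, and 640.01, 594, 732 and 933 at P60. Here P14 litter 1 was low, at 0.501 times the mean of the other P14 litters, and it lay within the range of the P28 litters.

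Nav3 had 2 further tested probe sets that differed from these. Nav3 170396_i_at on chip C, whose suffix marks probes that fell short of the usual design, ran in the opposite direction, with 658 to 702 at P14, 660.4 to 981 at P28 and 689 to 1336 at P60. Its log2 difference was 0.32 (SE 0.27, adjusted p = 0.8294 by limma) for P28 minus P14 and 0.50 (SE 0.25) for P60 minus P14. Nav3 108937_at on chip B had 1133 to 1826 at P14, 576 to 1361 at P28 and 759 to 1179 at P60, so that all ages overlapped. Against 107951_at over the 10 litters, r was 0.66 for 130290_at, 0.34 for 108937_at and −0.65 for 170396_i_at.

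Tenm3, the teneurin, had lower means at P28 and at P60 than at P14 in all 3 of its probe sets. The brightest, 166915_at on chip C, had 2061, 1976 and 1818 at P14, 984, 1124 and 947 at P28, and 771, 909, 842 and 993 at P60. These were the tightest P14 values among the brightest probe sets relative to their mean, at 1952 ± 123 (SD, n = 3). The log2 differences were −0.91 (SE 0.21, adjusted p = 0.241 by limma) for P28 minus P14 and −0.20 (SE 0.20, adjusted p = 0.921) for P60 minus P28.

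The Tenm3 probe set 171190_f_at on chip C, whose suffix marks probes shared with similar sequences, had 1788, 1764 and 1071 at P14, 553, 427 and 422 at P28, and 324, 708, 600.1 and 610 at P60. Its log2 difference of P28 minus P14, −1.61 (SE 0.32, adjusted p = 0.162 by limma), was the most negative of the 17, and P60 minus P28 was 0.20 (SE 0.30). Tenm3 92500_at on chip A had the lowest signals of this gene's probe sets, though its age means were above the chip median. Its ages overlapped, with 250.5 to 542 at P14, 254 to 336 at P28 and 212 to 297 at P60. Over the 10 litters r with 166915_at was 0.90 for 171190_f_at and 0.70 for 92500_at.

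Plppr1, a plasticity-related protein linked to filopodia and neurite branching, was measured by 105778_at on chip B alone. Its signal was 1558, 1792 and 1159.7 at P14, 857, 771 and 844 at P28, and 730.1, 661, 636 and 793 at P60. The P14 litters spread widely but stayed above all others, while the P28 litters lay close together. The log2 differences were −0.80 (SE 0.20, adjusted p = 0.314 by limma) for P28 minus P14 and −0.21 (SE 0.19, adjusted p = 0.91) for P60 minus P28.

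Plppr4 behaved differently in its 2 bright probe sets on the same chip. The brighter, 164224_at, had 21180, 9595 and 10383 at P14, 10496, 6556 and 9275 at P28, and 2742, 4011, 9227 and 6512 at P60. P14 litter 1 was 2.12 times the mean of the other P14 litters, and P28 litter 1 exceeded both of those. The P60 litters spread widely, with litters 1 and 2 low and litter 3 close to the P28 values. The log2 difference of P28 minus P14 was −0.57 (SE 0.43, adjusted p = 0.794 by limma), and −0.21 (SE 0.41, adjusted p = 0.931) without P14 litter 1. That of P60 minus P28 was −0.76 (SE 0.40, adjusted p = 0.894), more negative than the earlier step in this probe set.

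The dimmer Plppr4 probe set, 107855_at, had 9281, 4567 and 5231 at P14, 2826, 2543 and 2929 at P28, and 2156, 2136, 2909 and 1976 at P60. All P28 and P60 litters were below all P14 litters, also with P14 litter 1 set aside, which was 1.89 times the mean of the others. The log2 difference of P28 minus P14 was −1.12 (SE 0.26, adjusted p = 0.278 by limma), and −0.81 (SE 0.19, adjusted p = 0.149) without that litter. That of P60 minus P28 was −0.28 (SE 0.24, adjusted p = 0.91). The 2 probe sets correlated at r = 0.82 over the 10 litters. The remaining Plppr4 probe set, 169236_r_at on chip C, stayed beneath the bacterial control level at every age.

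Dner, the Notch-like transmembrane protein, was measured well by 162927_at on chip B. It had 6565, 4979 and 5015 at P14, 3055, 2693 and 2713 at P28, and 2218, 2323, 2909 and 2112 at P60. The log2 differences were −0.94 (SE 0.20, adjusted p = 0.216 by limma) for P28 minus P14 and −0.24 (SE 0.18, adjusted p = 0.902) for P60 minus P28. Every P28 and P60 litter was below every P14 litter, and P14 litter 1 was the highest, at 1.31 times the mean of the other P14 litters.

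The remaining 4 Dner probe sets were all on chip C and dimmer. Dner 168465_r_at had 319 to 362 at P14, 305 to 430.3 at P28 and 313 to 501 at P60, with all ages overlapping and r = −0.49 with 162927_at. The other 3 (167499_r_at, 167500_at and 170085_at) had age means beneath the bacterial control level of chip C, 252, at every age and were not tested. Beneath that level, 167500_at averaged 64.4 at P14, 24.9 at P28 and 18.5 at P60, with every P28 litter below every P14 litter. Of the 5 dim probe sets in all, 4 were on chip C and 1 on chip B.

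**Figure D2:**
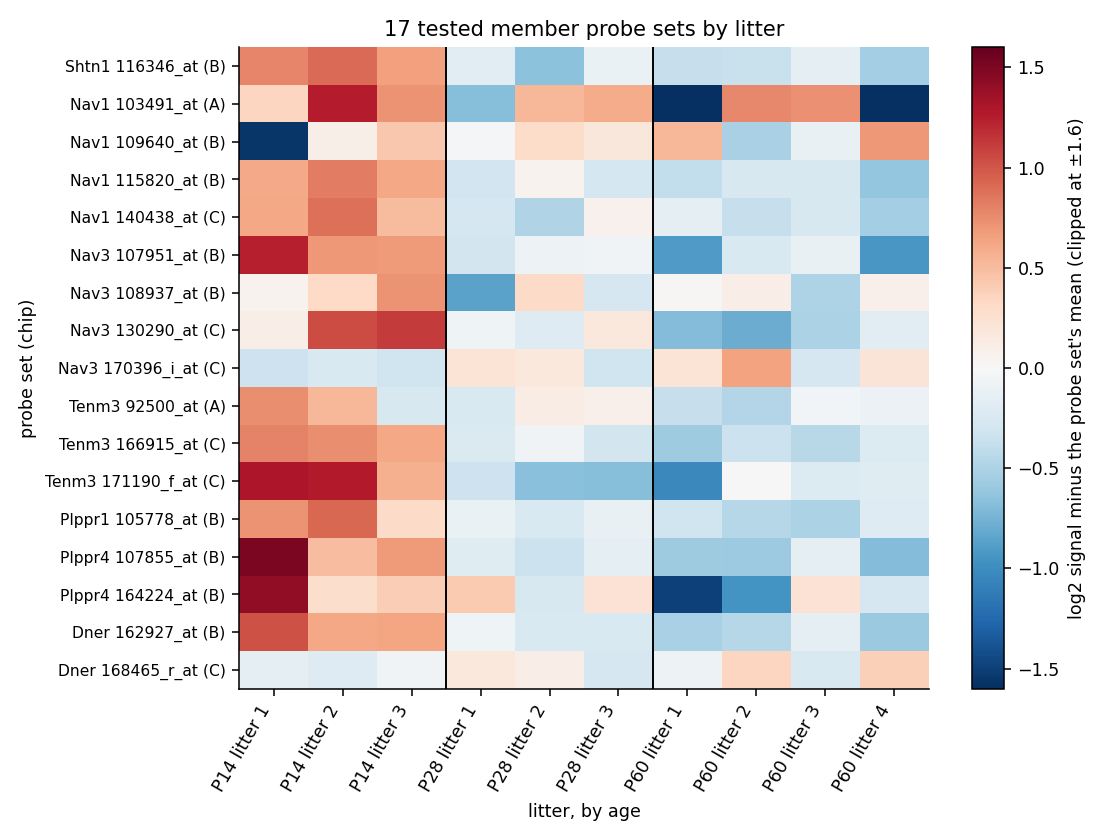
Log2 signal of the 17 tested probe sets (rows) in the 10 litters (columns, by age), each minus the probe set's own mean and clipped at ±1.6. Red is above and blue below the mean: most rows are red at P14, while Nav3 170396_i_at and Dner 168465_r_at are blue there and Nav1 109640_at is mixed.

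Between P14 and P28, 14 of the 17 tested probe sets had lower means on the log2 scale at P28, with a median difference of −0.80, beside a median of 0.03 and 47.1% lower over all 20724 tested probe sets. No probe set of the 7 genes passed the limma test at adjusted p 0.05, with adjusted p-values of 0.147 to 0.945, and 10 of 17 had an unadjusted p under 0.05, as 1632 of all 20724 did. Calls were as sparse over the whole table, where 1 probe set in 20724 was called lower (0.00483%). By the plainer criterion that every P28 litter lie below every P14 litter, 9 of 17 probe sets qualified, from all 7 genes, beside 8.41% of all tested probe sets. The contrast that chose the genes did not compare P28, but it used the P14 litters, and the genes were chosen with earlier results of these data known. This count is therefore not independent of the choice.

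The outcome of the test depended on the arrays that stood apart. Without them, 5 of the 17 probe sets, from 4 genes, were called lower at P28 than at P14, beside 0.603% of all tested probe sets. These were Shtn1 116346_at (log2 difference −1.10, adjusted p = 0.0404 by limma), Nav1 115820_at (−0.90, adjusted p = 0.0432), Nav3 107951_at (−0.83, adjusted p = 0.0356), Nav3 130290_at (−1.12, adjusted p = 0.0461) and Dner 162927_at (−0.81, adjusted p = 0.0393). Of these, Nav3 130290_at differed most from the fit with all litters, where it had −0.80. Without P14 litter 1 alone, 15 of 17 were lower and none was called, the smallest adjusted p being 0.111, beside 0.0772% of all tested probe sets called lower. These calls reuse P14 litters that helped choose the genes, and the arrays left out were themselves chosen with earlier results known, so they are no independent support.

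**Figure D3:**
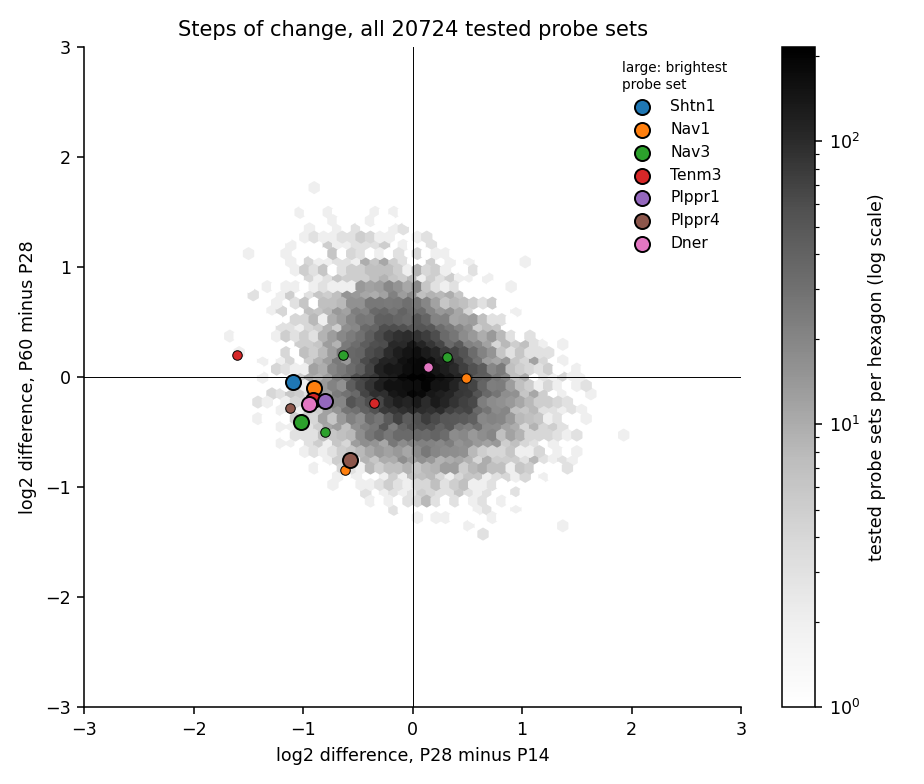
Log2 difference of P28 minus P14 (horizontal) against P60 minus P28 (vertical) for all 20724 tested probe sets (grey hexagons, shade by number on a log scale) and for the probe sets of the 7 genes (coloured, large for the brightest of each gene). The 7 brightest probe sets lie left of 0, between −0.57 and −1.09, and within −0.76 and −0.04 on the vertical axis; both axes use the same P28 litters.

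Between P28 and P60 no probe set of the 7 genes was called. Of the 17 tested probe sets, 13 had lower means at P60 than at P28, with a median log2 difference of −0.20 beside −0.01 and 51.0% lower over all tested probe sets. The most negative were Nav1 103491_at at −0.84 (SE 0.72) and Plppr4 164224_at at −0.76 (SE 0.40). The smallest adjusted p by limma was 0.894, and none had an unadjusted p under 0.05. Over the whole table also 0% were called lower, although 1125 probe sets had an unadjusted p under 0.05. In none of the 17 did every P60 litter lie below every P28 litter, beside 4.46% of all tested probe sets. Without the arrays that stood apart the 7 brightest probe sets lay between −0.50 and 0.06. The P60 litters helped choose the genes, so this comparison is not independent of the choice either.

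As a share of the whole P14 to P60 log2 difference, the part present at P28 was 96.5% for Shtn1, 90.1% for Nav1, 81.6% for Tenm3, 79.6% for Dner, 79.1% for Plppr1, 71.3% for Nav3 and 43.1% for Plppr4 164224_at. The median of these brightest probe sets was 79.6%. Not all of these brightest probe sets were called at P60 against P14. For the 7 probe sets of these genes called lower there, the median was 80.1%, from 71.3% to 96.5%. For the 53 other probe sets called lower at P60 than at P14, the median was 69.2%, with quartiles of 56.7% and 82.8%. The Plppr4 share was 21.9% without P14 litter 1, while 107855_at of the same gene had 80.1%. Without the arrays that stood apart the Nav3 share was 95.7%. The ratios share their P14 and P60 litters with the choice of genes and are a description.

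For P60 minus P14, the contrast that chose the genes, log2 differences of the brightest probe sets were −1.43 (SE 0.25) for Nav3, −1.33 (SE 0.40) for Plppr4, −1.19 (SE 0.18) for Dner, −1.13 (SE 0.19) for Shtn1, −1.12 (SE 0.20) for Tenm3, −1.02 (SE 0.19) for Plppr1 and −1.0003 (SE 0.20) for Nav1. Without the arrays that stood apart these 7 differences lay between −1.09 and −0.71, with Nav3 at −0.87 and Plppr4 at −0.71. In linear terms, over all litters, the P60 means were 0.365 to 0.495 times the P14 means. On the called side of the threshold were 7 probe sets, 1 of each gene, beside 0.29% of all tested probe sets called lower, and nothing is read from that count. Just inside lay Plppr1 105778_at and Plppr4 107855_at, with adjusted p = 0.0406 and adjusted p = 0.0345 by limma. Just outside lay Nav1 140438_at with adjusted p = 0.0572, and Nav3 130290_at and Tenm3 171190_f_at with adjusted p = 0.0617. The count of 7 was 9 without P14 litter 1, 8 without P60 litter 3, 2 without P28 litter 2, 1 without P28 litter 1, and 0 without P14 litter 2 or 3, P28 litter 3, or P60 litter 1, 2 or 4. In 11 of 17 probe sets every P60 litter was below every P14 litter, beside 6.42% of all tested probe sets.

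**Figure D4:**
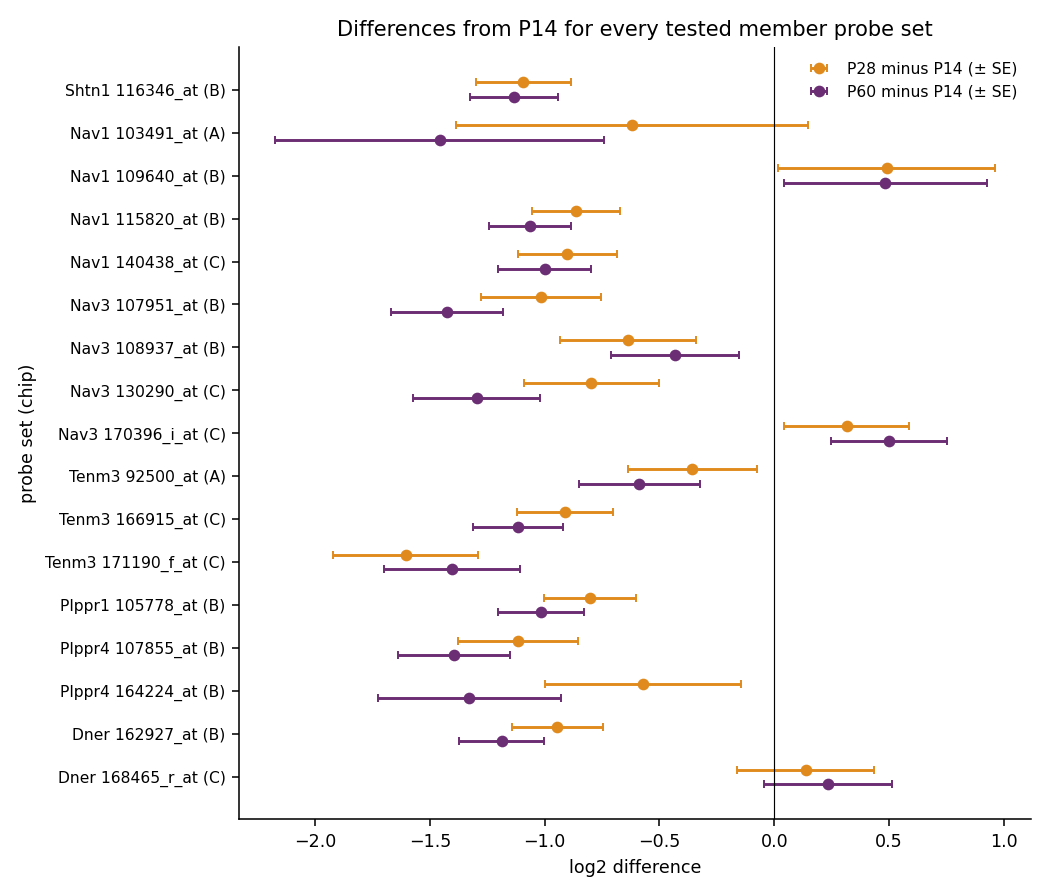
Log2 difference from P14 (horizontal axis, ± SE from limma) of every tested probe set of the 7 genes, at P28 (orange) and at P60 (purple). Nav1 109640_at, Nav3 170396_i_at and Dner 168465_r_at lie right of 0 at both ages, and Nav1 103491_at has the widest error, 0.77 at P28 and 0.72 at P60.

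Genes chosen for lower signal at P60 than at P14 have part of their correlation over litters that span these ages set by that choice. Pearson's r between pairs, over the 10 litters, was 0.56 to 0.97 with a median of 0.88 in 21 pairs. Once each age's mean was removed, r was −0.64 to 0.80 with a median of 0.22. The closest pair was Shtn1 and Nav1 (r = 0.97, and 0.80 within ages), measured on chips B and C. These correlations share litters, and on the same chip also arrays, and are a description. Averaged over the 7 genes, the centred log2 signal was 0.74 ± 0.20 at P14, −0.16 ± 0.12 at P28 and −0.44 ± 0.18 at P60 (SD over 3, 3 and 4 litters).

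Among 17217 probe sets with a single symbol that were candidates, the non-member genes with the highest r to this mean profile were Fhl1 (0.980), Slc31a1 (0.976), Ccn3 (0.973), Nrep (0.973), Igf1 (0.969), Ppic (0.964), Marcks (0.963) and Ccnh (0.960). Fhl1 encodes a LIM domain protein, Slc31a1 a copper transporter, Ccn3 a secreted matrix protein, Igf1 a growth factor and Marcks an actin-binding substrate of protein kinase C. Fhl1 97498_at averaged 1822 at P14, 1027 at P28 and 871 at P60. Slc31a1 101877_at averaged 670.3, 318 and 242, in the same order of ages. Ppic 100089_at averaged 269, 144 and 76.8, and this P60 mean was beneath the chip A control level of 98.4.

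Each gene also had its own nearest profiles. Shtn1 was closest to L1cam (r = 0.979), Ncam1 and Npnt, and Nav1 to Klf7 (0.960), L1cam and Ncam1, so that the surface molecules L1cam and Ncam1 were named for both. The Klf7 probe set was 114906_at, whose P60 mean of 149 was beneath the chip B control level of 153. Nav3 was closest to Oxct1 (0.974), Igf1 and Kifap3, and Tenm3 to Ybx1 (0.973), Aplp2 and 1500004A13Rik. Plppr1 was closest to Msl3 (0.961), 1500004A13Rik and Rimklb, Plppr4 to Tmem167 (0.956), Hspd1 and Mindy3, and Dner to Fhl1 (0.995), Kcnk2 and Slc31a1. All are correlations over the same 10 litters.

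The relatives and known partners of the 7 genes, a list of 49 genes of which 40 were tested through 73 probe sets, had 1 call in the 3 contrasts. At P28 against P14 none was called and 38 of 73 were lower, with a median log2 difference of −0.06, beside 0.03 over all tested probe sets. At P60 against P28 none was called, with a median of −0.02 beside −0.01. At P60 against P14, 35 of 73 were lower with a median of 0.04 beside 0.06. The call, beside 0.29% of all tested probe sets called lower, was L1cam 110182_at, the adhesion receptor that shootin1 couples to actin. It fell to 1353 ± 247 at P60 (SD, n = 4), against 4042 ± 541 at P14 (n = 3), a log2 difference of −1.55 (SE 0.21, adjusted p = 0.0111 by limma). Its P28 level was 1625 ± 328 (n = 3). The second L1cam probe set, 99800_at, was dim and had a log2 difference of −0.20 for P60 minus P14.

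Among the paralogues no probe set was called in the contrast of P60 with P14, and signs were mixed. Tenm2 133154_at had a log2 difference of −1.15 (adjusted p = 0.0912 by limma) and Tenm2 92389_at one of 0.62. Tenm4, a teneurin with 5 tested probe sets, lay at 0.08 to 0.93, on the other side of 0 from Tenm3. Nav2 161050_at had −0.96 and 107448_at −0.21, and Plppr5 had −0.50, −0.57 and −1.05 in its 3 probe sets. The list genes farthest from 0 in P28 minus P14, none called, included Notch1 97497_at at −1.33, L1cam 110182_at at −1.30 and Plppr5 167637_i_at at −1.05. Notch1 97497_at averaged 449 at P14, 149 at P28 and 124 at P60, the later means beneath the chip A median of 207. It was thus tested mainly through its P14 litters. For Lpar1, a receptor of lysophosphatidic acid, the mean was 289 at P28, against 91.1 at P14, which is beneath the chip A control level of 98.4, so no fold is given. For Dlk1 169192_i_at it was 409 at P28, against 167 at P14, beneath the chip C level of 252, and the brightest Dlk1 probe set, 101975_at, had a log2 difference of 0.19. Notch1 was not uniform, since its probe set 162204_r_at had 0.43 in that contrast.

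The list of 35 neurite growth genes, of which 34 were tested through 78 probe sets, held genes of growth cones and young neurons. None was called at P28 against P14, where 50 of 78 were lower and the median log2 difference was −0.19, or at P60 against P28, where the median was −0.06. At P60 against P14, 49 of 78 probe sets were lower and 29 higher, with a list median of −0.20 beside 0.06 over all tested probe sets. Called lower were 6 and called higher none, beside 0.29% of all tested probe sets called lower (60) and 22 called higher. Nrep fell to 1946 ± 630 at P60 (SD, n = 4), against 7021 ± 1448 at P14 (n = 3), a log2 difference of −1.86 with adjusted p = 0.011 by limma. Stmn2 95670_at, for a protein that destabilises microtubules in growth cones, had −1.48 (adjusted p = 0.011), and its brightest probe set, 95669_g_at, −1.16 (adjusted p = 0.051, not called). Gap43, a growth cone membrane protein, had −1.13 (adjusted p = 0.0179). Marcks 96865_at had −1.31 (adjusted p = 0.0297) and Marcks 165267_i_at 0.28, not called. Ncam1 100153_at had −1.02 (adjusted p = 0.0311) and Ncam1 161750_f_at 0.76, not called. The sixth call was Klf7 114906_at, for a transcription factor, at a mean of 149 at P60, beneath the chip B control level of 153, against 907 at P14 (adjusted p = 0.0345 by limma). Its P28 mean was 160, and both later means were beneath the chip B median of 252 that the filter used. This Klf7 probe set was thus tested mainly through its P14 litters, where it is high, and its direction is not read as a result. The brightest Klf7 probe set, 112898_at, had −0.57 and 104645_at −0.50, neither called. Over both lists together, the 7 calls at P60 against P14 became 21 without P14 litter 1, 13 without P60 litter 3, 4 without P28 litter 1 or 2, 3 without P14 litter 3 or P60 litter 1 or 2, and 0 without P14 litter 2 or P60 litter 4. The 21 were 15 lower and 1 higher in the neurite growth list, and 3 lower and 2 higher among relatives and partners. In that fit 344 of all tested probe sets were called lower and 153 higher. At P60 against P14 without the arrays that stood apart, 13 were called lower and 2 higher in the neurite growth list. Among relatives and partners 2 were called lower and 2 higher, beside 271 lower and 170 higher over all tested probe sets. Without the arrays that stood apart, 8 probe sets of the neurite growth list and 2 of the relatives and partners were called lower at P28 than at P14, beside the 0.603% of all tested probe sets, and 1 of the relatives and partners was called higher. This list, like the genes themselves, was chosen with earlier results of these data known, and the direction of its calls is not independent evidence.

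**Figure D5:**
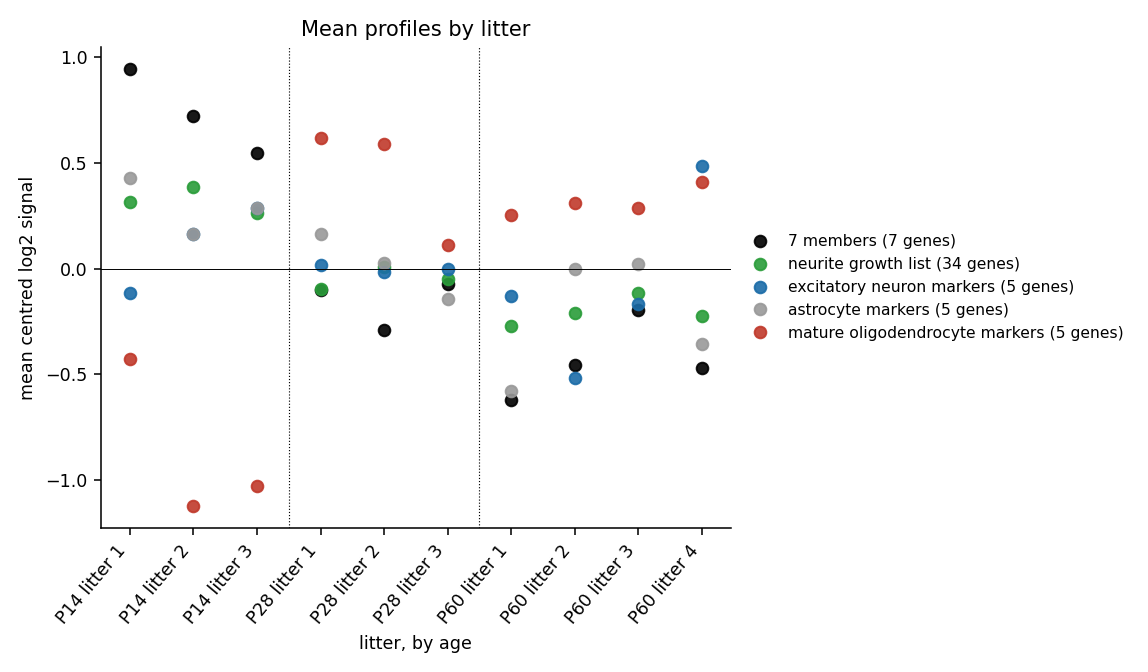
Mean centred log2 signal per litter (points), by age, for the brightest probe sets of the 7 genes, of the neurite growth list and of 3 cell type marker lists. The 7 genes lie at 0.55 to 0.94 in the P14 litters and at −0.62 to −0.07 in the P28 and P60 litters, and the mature oligodendrocyte markers lie lowest at P14.

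Marker lists of cell types were summed over the brightest probe set of each gene, so that bright probe sets weigh most. The cortical label was matched by excitatory neuron markers, 5 of 6 on the arrays, with a summed signal of 78126 to 94012 at P14, 50288 to 61600 at P28 and 48926 to 68855 at P60, with P14 above both other ages. Nrgn 166833_at carried most of this sum, averaging 71160 at P14, 43465 at P28 and 45042 at P60, while Tbr1 averaged 4782, 4645 and 5071. The dimmest of the 5 markers were Neurod6, averaging 242, 214 and 274, and Camk2a, whose brightest probe set averaged 530, 348 and 257. As mean centred log2 signal, which weights the 5 genes alike, they lay at 0.11 ± 0.21 at P14, −0.001 ± 0.016 at P28 and −0.08 ± 0.42 at P60 (SD over litters). Astrocyte markers, 5 of 5 on the arrays, summed to 32944 to 74048 at P14, 33002 to 41798 at P28 and 26518 to 42440 at P60. Mature oligodendrocyte markers, 6 of 7 on the arrays with Cnp beneath the bacterial control level, ran the other way, at 3926 to 7366, 8737 to 14374 and 9878 to 13957. GABAergic neuron markers, 6 of 6 on the arrays, overlapped across ages at 21720 to 37116, 23840 to 37220 and 20689 to 32517. Over all litters, the brightest Gad2 probe set in that sum averaged beneath the control level of its chip. Choroid plexus genes, 3 of 3, summed to 428 to 769 at P14, 954 to 1629 at P28 and 950.5 to 1391 at P60. Blood genes, 2 of 4 on the arrays, summed to 4987 to 23609, 24205 to 33618 and 16804 to 50670, with P14 and P60 litters overlapping. Summed signals of oligodendrocyte progenitor markers (4 of 4) were 4676 to 10806, 5549.9 to 9616 and 3688 to 6538, of microglia (6 of 6) 4737 to 6024, 4322 to 5742 and 3829 to 5002, of endothelium (4 of 4) 652 to 1777, 933 to 1264 and 1061 to 1268, and of meningeal fibroblasts (4 of 4) 3212 to 4432, 2873 to 3679 and 3078 to 3992, all overlapping across ages. Beneath the control level on average in these sums were Cspg4 and Olig2 of the progenitors, Aif1 and Itgam of microglia, and Tek of endothelium. Among 70 tested marker probe sets, 1 was called lower at P60 than at P14 and 2 were called higher, beside 60 lower and 22 higher of all 20724 tested. Col1a1 94305_at, a fibroblast collagen, was at a mean of 63.0 at P60, beneath the chip A control level, against 582 at P14 (adjusted p = 0.0253 by limma), while its brightest probe set, 103709_at, had −0.78 and was not called. At P28 Col1a1 94305_at was at 177 ± 7.7 (SD), and both later means were beneath the chip A median of 207 that the filter used. It was thus tested through its P14 litters, where it is high, and its direction is not read as a result. Called higher were probe sets of 2 myelin genes, Mag 102405_at (log2 difference 1.51, adjusted p = 0.0461 by limma) and Mobp 99046_at (1.70, adjusted p = 0.0308). The P14 mean of Mobp 99046_at, 171, was beneath the chip A median, so it was tested mainly through the later ages. The other tested Mobp probe sets lay at −0.43 to 1.44, with the brightest, 100536_at, at 1.37, and none of them was called. Mag 161846_r_at had 0.38, not called. The part of cell composition in the lower signal of the 7 genes was not tested.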

How the data were processed

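Total RNA from microdissected V1 of 10 litters was measured on 3 chip types, 30 arrays in all. The deposited values are MAS5 signals, an intensity on a linear scale; per the submitters' processing notes they were made by the authors with MAS5, version not given in the sources used here, and the 2% trimmed mean was about the same on all arrays. From these intensities, log2(signal + the chip type's 20th percentile) was computed, with constants of 38.6, 57.8 and 44 for chips A, B and C, so differences understate changes of dim probe sets. Array controls were left out, and 6819, 7005 and 6900 probe sets whose signal exceeded their chip's median (207, 252 and 183) on 3 or more arrays were tested. Array number limits the precision. Each chip type was fitted with limma 3.58.1 in R 4.3.3 (lmFit, eBayes with a variance trend), age as the only term, and p-values of all 3 chips were pooled for Benjamini-Hochberg adjustment, taking 0.05 as the threshold. The fit was tested on simulated data.

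Gene symbols came from GEO's platform annotation, updated by gene ID (99.7% of single symbols matched). Chips A, B and C had 10855, 10603 and 7739 probe sets with 1 symbol, 396, 178 and 150 with several and 1237, 1696 and 4045 with none; those with several or none were not named. The bacterial control level is the 95th percentile of 15 Bacillus probe sets per chip type, 98.4, 153 and 252. Probe sets with the highest mean log2 signal of a gene are called its brightest. Genes were named by fixed rules: all probe sets of the 7 genes, the 8 most alike profiles, 3 per gene, and list genes called. List genes with the largest difference were named only for relatives and partners at P28 against P14. Paralogues, some markers and further probe sets of named genes were given beside these rules. The members and lists were chosen with earlier results of these data known, as were the arrays left out in 1 alternative. RefSeq promoters are of GRCm38.p6. Alternatives covered the added constant, the filter, quantile normalization, the variance model, a replicate block and each litter left out; no library, slide or scan batch is given in the labels.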

Additional observations from a re-analysis of the deposited data

Results flagged for a closer look

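In 2 of the 22 groups of P60 litters examined (1 group for each probe set of the 7 genes), the highest or lowest litter lay farther from the rest than Dixon's 95% critical value for 4 samples allows, and chance alone flags about 1 in 20 groups. Nav3 108937_at had 759 in P60 litter 3, the next litter at 1108 and the farthest at 1179, a ratio of gap to range of 0.830. Dner 167500_at had 45.8 in P60 litter 2, the next at 11.97 and the lowest at 7.13, a ratio of 0.875, and all of these values lie beneath the bacterial control level of 252. Neither probe set is the brightest of its gene.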

How the results depend on the processing

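In P60 minus P14, the contrast that chose the genes, the brightest probe set of each gene was lower in all 133 fits across 19 alternatives (−1.61 to −0.71, 53 called). Signs and calls in that contrast follow from the choice and are a description only. For P28 minus P14 the brightest probe sets stayed lower in all 133 fits (−1.20 to −0.21, 9 called), and for P60 minus P28 in 127 of 133 (none called). The 6 exceptions were small: for Shtn1 P60 minus P28, 0.0231 with the replicate block, 0.0634 without the arrays that stood apart and −0.214 to 0.0617 with each litter left out, and for Nav1 −0.225 to 0.0475 with each litter left out. Counts of calls moved more, and the cause was not tested. For P28 against P14, members called numbered 11 with array weights and 5 without the arrays that stood apart, against 0, and list probe sets 29 and 11, against 0, and 0 to 4 with each litter left out (4 without P14 litter 1). For P60 against P14, members called numbered 1 without a variance trend, 12 with array weights, 0 with the replicate block and 0 to 9 with each litter left out, against 7. List probe sets called there numbered 51 with array weights, 0 with the block, 19 without the arrays that stood apart and 0 to 21 with each litter left out, against 7. The counts moved with the whole table. There, 1163 probe sets were called at P28 against P14 with array weights, 208 without the arrays that stood apart and 26 without P14 litter 1, against 1. At P60 against P14, 3621 were called with array weights, 51 without the variance trend, 497 without P14 litter 1, 441 without the arrays that stood apart and 0 with the block, against 82. Whether litter numbers pair samples was not settled. The 27 correlations of deviations between litters of the same number ran from −0.08 to 0.16, and 4 exceeded 0.1. No correlations between litters of different number were computed beside them. Quantile normalization moved the median of all probe sets by under 0.1. With 3 or 4 litters per age, dim probe sets limit what can be seen.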
